A study of Mus musculus with 12 samples.

Results

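The activity-regulated immediate early genes were taken as a list of 37 named genes, each matched by its NCBI gene ID in the count tables of all 12 libraries, out of 27179 gene IDs in all. The rule uses gene names and no measured value. RNA came from wild-type C57BL/6 mice in 4 groups of 3 libraries: cultured hippocampal neurons that had received AAV2-shBrpf1-GFP or, as the control, AAV2-scramble-GFP, and hippocampal CA1 tissue injected with either virus. The shBrpf1 virus carries a short hairpin RNA against Brpf1, whose product is a scaffold of histone acetyltransferase complexes, and all 4 groups carry an AAV2 virus with GFP. The neurons were infected on day 3 in vitro, and the study used cultures of this kind on days 14 to 15. The development stage label gives embryonic day 18 to 19 for them, but other labels and the methods of the study give other embryonic ages. The CA1 mice were injected at 4 weeks of age and are labelled 8 weeks after birth. According to the labels the scramble and the shBrpf1 virus were injected into the left and the right CA1, so in CA1 the virus and the side may not be told apart. The promoter that drives the hairpin is not given in the sources used here, and RNA was taken in bulk, without a stated selection of infected cells. No stimulus is stated for the cultures. The study describes the sequenced RNA as batches or pairs of scramble and shBrpf1 material in both experiments, but does not say that the replicate numbers mark these pairs or that each CA1 library is from its own mouse. The p-values measure the spread between these libraries, which may be in part technical.

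Immediate early genes are transcribed within minutes of a stimulus from factors that are already in the cell. In neurons, calcium that enters through NMDA receptors and voltage-gated channels activates kinases, which in turn act on the transcription factors CREB, SRF with its Elk partners, and MEF2. Many of the products are transcription factors themselves, such as the AP-1 subunits (Fos and Jun families), the Egr zinc finger factors, Npas4 and the Nr4a nuclear receptors. Others act as brakes on the same pathway, such as the Dusp phosphatases of MAP kinases, or reach the synapse, such as Arc, Bdnf and Nptx2. In the hippocampus these genes are widely used as marks of recently active neurons.

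Promoters of some members that recur in the results are shown first because CREB, a known mediator of calcium signals, binds the cyclic AMP response element (CRE). All of those shown hold the core of this element. Ier5, Fosl2 and Tiparp recur as well, but their windows do not hold the core and are not shown. RefSeq promoter windows of the GRCm38.p6 assembly were matched for 29 of the 37 members, and the 250 bases before each annotated start were searched on both strands. Egr1, Egr3, Klf10, Ier2, Sik1, Trib1, Arc and Nptx2 had no window, and sites farther upstream were not searched. Below, capitals mark the CRE core TGACG (read CGTCA on the opposite strand), the full CRE TGACGTCA, which holds the core on both strands, and the TATA box TATAAA. Each stretch is written from 5′ to 3′ in the direction of its gene.
Fos, an AP-1 subunit, chr12:85473750-85473870, plus strand: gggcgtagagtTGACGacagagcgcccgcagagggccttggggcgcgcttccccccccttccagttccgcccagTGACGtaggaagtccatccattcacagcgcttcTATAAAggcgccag
Npas4, a neuronal factor induced by calcium entry, chr19:4990071-4990161, minus strand: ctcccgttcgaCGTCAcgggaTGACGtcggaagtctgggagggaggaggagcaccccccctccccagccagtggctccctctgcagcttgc
Nr4a1, a nuclear receptor, chr15:101266606-101266816, plus strand: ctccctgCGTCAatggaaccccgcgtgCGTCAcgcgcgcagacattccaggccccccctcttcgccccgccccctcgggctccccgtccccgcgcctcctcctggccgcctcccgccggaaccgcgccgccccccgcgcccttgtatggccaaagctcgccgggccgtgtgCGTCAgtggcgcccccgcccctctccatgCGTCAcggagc
Nr4a3, its relative, chr4:48045065-48045170, plus strand: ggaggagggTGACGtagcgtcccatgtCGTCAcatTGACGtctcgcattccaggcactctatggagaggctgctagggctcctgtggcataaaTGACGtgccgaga
Dusp1, a phosphatase of MAP kinases, chr17:26508597-26508672, minus strand: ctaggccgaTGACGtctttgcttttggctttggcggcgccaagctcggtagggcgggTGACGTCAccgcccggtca
Arl4d, an ARF-like small GTPase, chr11:101665461-101665540, plus strand: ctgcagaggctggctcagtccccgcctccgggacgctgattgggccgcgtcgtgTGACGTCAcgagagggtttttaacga

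The core TGACG was present in 22 of the 29 members (75.9%), against 19.8% of all 27025 genes with a window. Nr4a1, Nr4a2 and Nr4a3 each held it 4 times. The full CRE was present in 5 members, Arl4d, Btg2, Dusp1, Maff and Pcsk1 (17.2%), against 1.77% of all genes. The Egr motif GCGNGGGCG was present in 10 members (34.5%), Fosb, Fosl2, Nr4a1, Nr4a2 and Klf2 among them, against 5.33% of all genes. The SRF motif, the CArG box, was found in Dusp5 and Egr2 (6.90%, against 1.62%), the AP-1 motif TGANTCA in Bdnf and Csrnp1 (6.90%, against 7.82%), and TATAAA in Fos, Gadd45b and Nr4a2 (10.3%, against 14.3%). The members' windows were richer in G and C than all windows (median 62% against 52.4%), and the shares were not matched for that. Nor were they matched for the number of windows, 45 for the 29 members and 32851 for the 27025 genes. The absence of a match, as for the CArG box, holds only for the windows searched. These matches describe the letters of the windows and not binding.

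Library totals ran from 18330618 to 30275304 counts, and the members took 0.0775% to 0.219% of them. Levels are given as CPM, the usual counts relative to library size, with sizes scaled by edgeR's TMM method. In the CA1 tables every one of the 972 gene IDs on chromosome 13 was at 0 in all 6 libraries, while 808 of them had counts in neurons. Pcsk1, which encodes a prohormone convertase, lies there, so its CA1 level was not measured and each comparison with CA1 covers 36 members. The source label calls every sample neural progenitor cells, but the summed level of 12 pan-neuronal markers was 2401 to 6499 CPM in the cultures and 5189 to 7730 CPM in CA1, against 336 to 1467 CPM and 108 to 141 CPM for 8 progenitor markers. Markers of other hippocampal fields were also found in the CA1 tissue. There 7 CA1 pyramidal markers summed to 345 to 736 CPM, 6 of the dentate gyrus to 437 to 571 CPM and 6 of CA3 to 234 to 424 CPM. Sums of different genes do not measure the share of a field, and how much other tissue was taken was not tested. Brpf1 mRNA itself had a log2 fold change (shBrpf1 over scramble) of -0.06 (SE 0.36) in neurons and -0.38 (SE 0.18) in CA1 (adjusted p = 0.999952 and 0.934). In neurons it was at 23.4, 52.8 and 38.5 CPM in scramble and at 27.1, 49.6 and 32.4 CPM in shBrpf1. In CA1 it was at 40.4, 46.4 and 36.0 CPM in scramble and at 28.0, 37.3 and 28.5 CPM in shBrpf1. There it was lower in shBrpf1 at each replicate number, though the groups overlapped. The unadjusted p in CA1 was 0.0719 in the edgeR test, and 0.038 with the replicate number as a block (adjusted p = 0.857). The study reports a knockdown of Brpf1 by RT-qPCR in cultures and in hippocampus, which is another measure than these counts.

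Per kilobase of gene length, the members with the highest mean level in scramble neurons were Jun (49.0 CPM per kilobase), the partner of the Fos proteins, Egr1 (40.7) and Nr4a3 (28.5). In scramble CA1 they were Arc (76.8 CPM per kilobase), which drives the removal of AMPA receptors from the synapse, Junb (52.9) and Egr1 (43.1). The lowest were Klf2 (0.813) and Klf4 (0.827) in scramble neurons, and Atf3 (0.71) and Maff (1.24) in scramble CA1, Pcsk1 aside.

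The members varied more between libraries of the same group than most genes did. On the scale of log2(CPM + 0.5), the SD within groups had a median over the members of 0.844 in neurons and 0.409 in CA1, against 0.388 and 0.263 over all tested genes. Jun was steady, with a within-group SD of 0.177 in neurons and 0.17 in CA1. Npas4 (2.04), Ptgs2, the inducible cyclooxygenase (1.91), Fos (1.51), Pcsk1 (1.39) and Fosb (1.38) had the largest SDs in neurons, and Fos (1.58) and Egr2 (1.53) in CA1.

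In the cultures most of that spread lay between the libraries with number 1 and the rest. Fos was at 124, 26.0 and 8.81 CPM in scramble replicates 1, 2 and 3, and at 39.4, 16.2 and 9.45 CPM in the shBrpf1 replicates of the same numbers. Npas4 was at 109, 5.29 and 5.69 CPM in scramble and at 48.5, 6.84 and 7.04 CPM in shBrpf1. For both genes the number 1 library was the highest in each arm. Egr1, an activity-induced zinc finger factor, was at 255, 67.6 and 51.9 CPM in scramble and at 201, 57.9 and 51.5 CPM in shBrpf1. Nr4a1 was at 81.7, 15.2 and 15.6 CPM in scramble and at 42.0, 14.2 and 15.9 CPM in shBrpf1. Junb, an AP-1 subunit, was at 94.3, 18.7 and 15.3 CPM in scramble and at 56.1, 19.5 and 15.5 CPM in shBrpf1. For Egr1, Nr4a1 and Junb the arms differed less at numbers 2 and 3 than at number 1. Arc was at 43.5, 7.84 and 18.0 CPM in scramble and at 26.3, 9.37 and 13.5 CPM in shBrpf1. Bdnf, the neurotrophin, was at 127, 25.4 and 32.6 CPM in scramble and at 113, 43.9 and 40.4 CPM in shBrpf1.

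Of the 37 members, 31 were highest in replicate 1 among the scramble neurons and 26 in replicate 1 among the shBrpf1 neurons, while 31.4% and 33.2% of all tested genes were highest there. Genes that did not follow included Nr4a2, Btg2 and Trib1, which were highest in the number 3 libraries of both arms. Other lists moved with number 1 as well, though not all. The sum of 12 pan-neuronal markers was 5498, 2401 and 5600 CPM in scramble and 6499, 3449 and 5467 CPM in shBrpf1. That of 8 astrocyte markers was 6742, 8406 and 5778 CPM in scramble and 4063.5, 6988 and 6241 CPM in shBrpf1. In scramble neither set number 1 apart. The summed level of 8 GABAergic markers was 1185 and 608 CPM in the scramble and shBrpf1 libraries of number 1, and 129 to 480 CPM in the other neuron libraries, where Pvalb was at 0 in 1 library and Vip in 2 of the 6 neuron libraries. The sum of 8 excitatory markers was 2634 and 4329 CPM against 1506 to 2399 CPM. The sum of 8 progenitor markers was 450.2 and 336 CPM against 1001 to 1467 CPM, and that of 6 oligodendrocyte precursor markers was 556 and 715 CPM against 911 to 3212 CPM. Their part in the members' levels was not tested, and in these bulk libraries fewer cells of a type and less RNA per cell cannot be told apart.

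**Figure D1:**
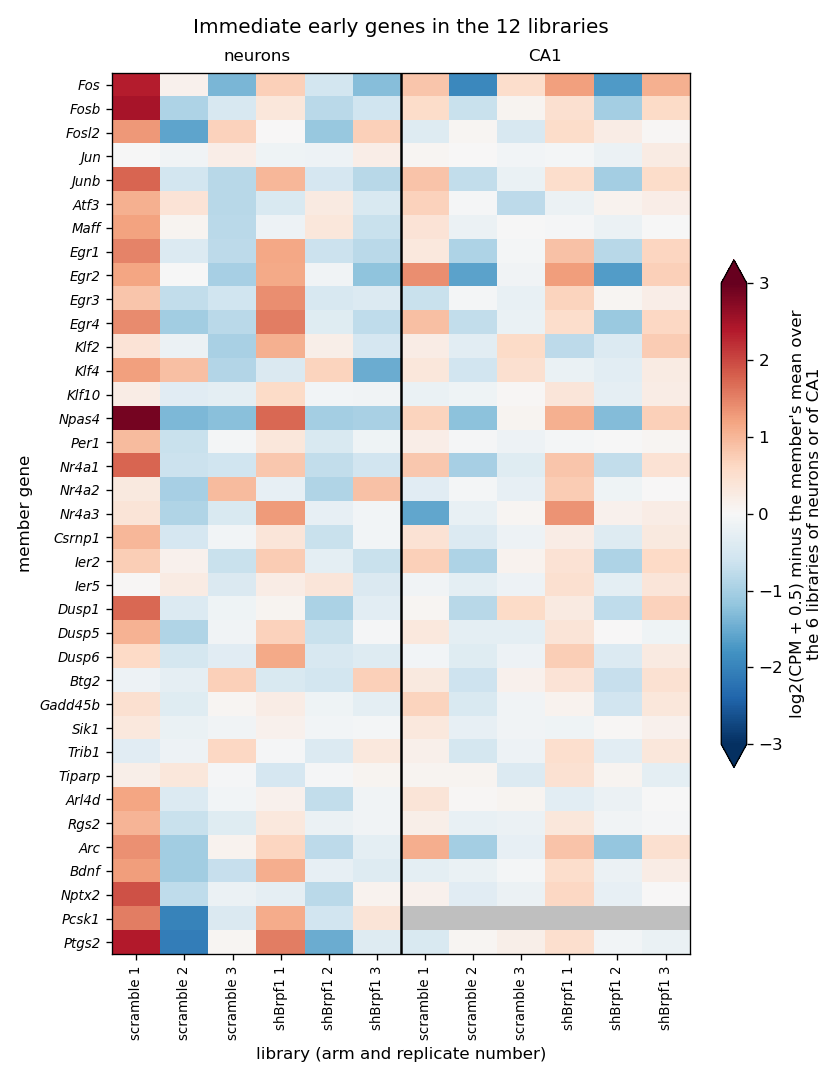
Heat map of the 37 members (rows) in the 12 libraries (columns), coloured by log2(CPM + 0.5) minus the member's mean over the 6 libraries of neurons or of CA1 (red higher, blue lower, grey not measured). In neurons the scramble 1 and shBrpf1 1 columns are red for most members, with 31 and 26 of 37 members highest there, and in CA1 both number 2 columns are blue for many members.

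In CA1 the number 2 libraries were the low ones. Of 36 members, 25 were lowest in replicate 2 among the scramble libraries and 27 in replicate 2 among the shBrpf1 libraries, against 36.0% and 34.0% of all tested genes. Fos was at 28.6, 3.79 and 23.1 CPM in scramble replicates 1, 2 and 3 and at 38.4, 4.56 and 34.1 CPM in the shBrpf1 replicates. Arc was at 432, 100.3 and 171 CPM in scramble and at 370.5, 91.4 and 282 CPM in shBrpf1. Both genes had their lowest level of each arm in replicate 2. The summed level of 6 choroid plexus and ependyma markers, such as the transthyretin gene Ttr, also varied in CA1, at 4941, 61.3 and 1180.4 CPM in scramble and 47.1, 3181 and 223 CPM in shBrpf1. It was low in one number 2 library and high in the other, so it did not follow the low members.

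**Figure D2:**
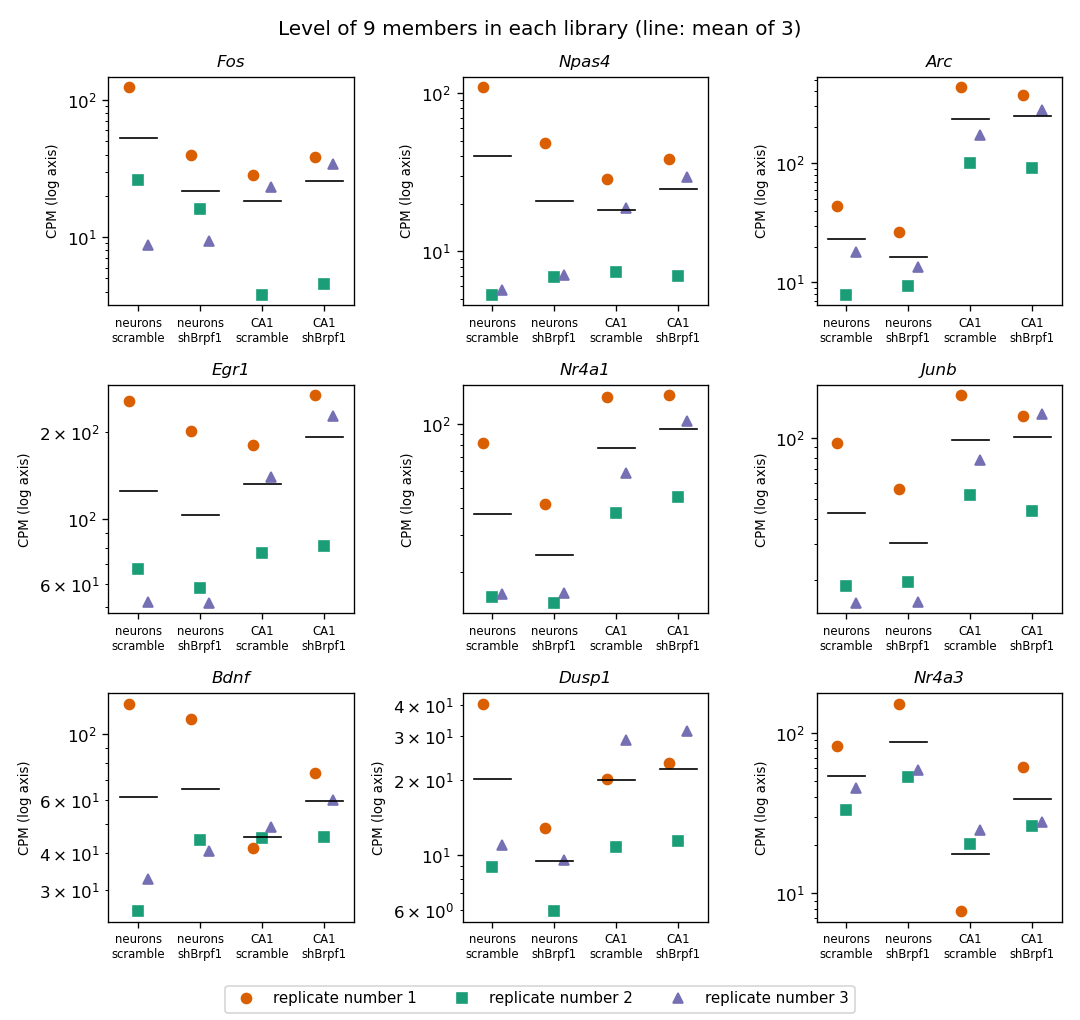
Level of 9 members in each library in CPM on a log axis, by group, with the replicate number as colour and symbol and the mean of 3 libraries as a line. Npas4 in neurons lies at 109 and 48.5 CPM in the number 1 libraries and at 5.29 to 7.04 CPM in the other 4, and Arc lies higher in each CA1 library than in any neuron library.

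The shBrpf1 and scramble neurons were compared to ask whether these genes differed with the hairpin in culture without a stated stimulus. Brpf1 mRNA itself did not differ beyond its error in these libraries, which limits what the comparison can show. No member passed an unadjusted p under 0.05 in the edgeR quasi-likelihood test (0 of 37, where 0.0747% of the 16066 tested genes passed), nor the threshold of the study, a log2 fold change of at least 1 in size with that p (0.056% of all genes). No adjusted p was under 0.05 for any gene (0.0%), and DESeq2 and limma-voom gave 0 members at either level as well. No member had groups that did not overlap (1.61% of all genes). The standard errors of the members' log2 fold changes ran from 0.20 (Jun) to 1.34 (Npas4), so the precision differed widely from member to member. This fit had no term for the replicate number, so the spread between numbers stayed in its error.

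Of the 37 log2 fold changes, 9 were above 0 and 28 below, with a median of -0.19, while 48.6% of all genes were above 0 with a median of -0.01. This lean rested on scramble replicate 1. Without that library 29 of 37 were above 0 and the median was 0.33, and without shBrpf1 replicate 1 there were 5 above 0 with a median of -0.53. Without scramble replicate 2, Dusp1 and Nptx2 were lower at an unadjusted p under 0.05. By role, all 7 AP-1 genes and their relatives were below 0 (median -0.55), as were all 7 signalling and growth regulators (median -0.15). The zinc finger factors had 4 of 7 above 0 (median 0.19) and the nuclear factors 2 of 8 (median -0.23). Of the MAP kinase phosphatases 1 of 3 was above 0, and of the synaptic and secreted effectors 2 of 5.

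The members with the lowest p in neurons were Dusp1, Nptx2, Fosb and Nr4a3, each with an adjusted p of 0.999952 like every other member. Dusp1 was at 40.7, 8.90 and 10.9 CPM in scramble and at 12.8, 5.93 and 9.51 CPM in shBrpf1, a log2 fold change of -1.11 (SE 0.64). Nptx2, a secreted protein that clusters AMPA receptors, was at 69.2, 10.3 and 16.0 CPM in scramble and at 14.8, 10.1 and 19.3 CPM in shBrpf1, a log2 fold change of -1.12 (SE 0.71). Fosb was at 24.4, 1.85 and 2.70 CPM in scramble and at 5.12, 2.06 and 2.46 CPM in shBrpf1, a log2 fold change of -1.59 (SE 1.02). For Nptx2 and Fosb only scramble replicate 1 stood above the shBrpf1 libraries. Nr4a3 was at 82.3, 33.1 and 45.4 CPM in scramble and at 152, 52.7 and 58.7 CPM in shBrpf1, a log2 fold change of 0.72 (SE 0.52), and it was higher in shBrpf1 at each number. The log2 fold changes of the other activity markers were -1.29 (SE 0.97) for Fos, -0.94 (SE 1.34) for Npas4, -0.64 (SE 0.78) for Nr4a1, -0.50 (SE 0.82) for Junb, -0.49 (SE 0.66) for Arc, -0.27 (SE 0.78) for Egr1 and 0.09 (SE 0.71) for Bdnf.

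**Figure D3:**
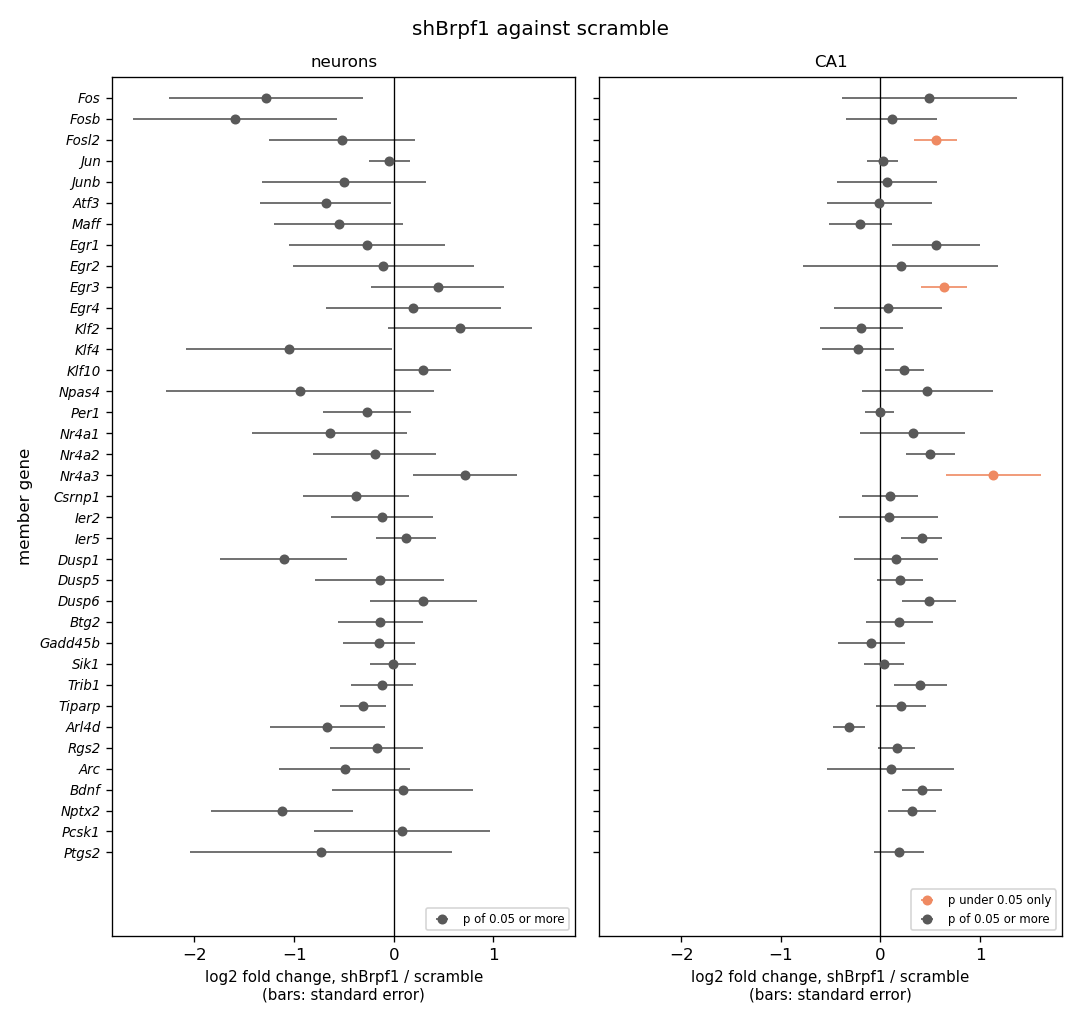
The log2 fold change of each member, shBrpf1 over scramble, with its standard error, in neurons (left) and CA1 (right), from edgeR. In neurons 28 of 37 points lie below 0 and no member passed an unadjusted p under 0.05, and in CA1 29 of 36 lie above 0 and Fosl2, Egr3 and Nr4a3 passed it.

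Since neuron libraries of the same number departed together from their group means (correlations across genes of 0.584, 0.887 and 0.848), the test was also run with the replicate number as a block. It then had 5 of 37 members at an unadjusted p under 0.05, against 4.9% of all genes, and 0 of 37 at an adjusted p under 0.05 (0.0% of all genes). With the block Nr4a3 was higher in shBrpf1 by 0.65 (SE 0.12), Egr3, a zinc finger factor, by 0.35 (SE 0.12) and Klf10, a Krueppel-like factor, by 0.28 (SE 0.10) on the log2 scale. Dusp1, at -0.84 (SE 0.30), and Klf4, at -1.23 (SE 0.48), were lower. The adjusted p of all 5 was 0.847. Klf4 was the 1 member past the threshold of the study, which 0.317% of all genes passed with the block, and it was a low gene with 3.98, 3.03 and 0.539 CPM in scramble and 0.90, 2.53 and 0.172 CPM in shBrpf1. Egr3 was at 44.5, 14.7 and 16.3 CPM in scramble and at 66.2, 17.7 and 18.5 CPM in shBrpf1.

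Within number 1, 28 of the 37 members were lower in shBrpf1 than in scramble, with a median log2 ratio of -0.54. Within number 2, 22 were higher (median 0.12), and within number 3, 24 were higher (median 0.01). Egr3, Egr4, Klf2, Klf10, Nr4a3 and Ier5 were higher in shBrpf1 at each of the 3 numbers, and Egr1, Egr2, Klf4, Dusp1 and Arl4d were lower at each, where 14.2% and 14.4% of all tested genes were higher or lower at each. The lean of the list below 0 thus lay in number 1. Of the 37 members, 6 were higher and 5 lower at all 3 numbers, shares close to those of all genes.

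**Figure D4:**
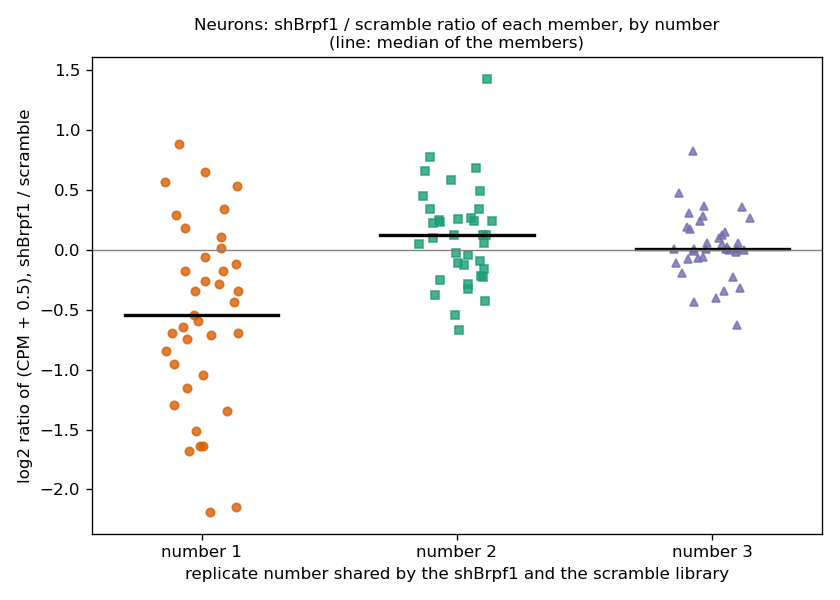
Each point is the log2 ratio of (CPM + 0.5) of a member, shBrpf1 over scramble, between the neuron libraries of the same replicate number, and the line is the median of the 37 members. The median is -0.54 at number 1, 0.12 at number 2 and 0.01 at number 3.

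In CA1 the same comparison gave 3 of 36 members at an unadjusted p under 0.05, all higher in shBrpf1, where 1.15% of the 16022 tested genes passed in either direction and 0.687% as higher. None had an adjusted p under 0.05, nor had any other gene (0.0%), and the lowest adjusted p of a member was 0.934. DESeq2 and limma-voom also gave 0 members by adjusted p and the same 3 by unadjusted p. Nr4a3 was at 7.75, 20.4 and 24.9 CPM in scramble and at 61.5, 26.1 and 28.0 CPM in shBrpf1, a log2 fold change of 1.13 (SE 0.48). It was the 1 member past the threshold of the study, which 0.468% of all genes passed. Egr3 was at 31.2, 48.0 and 42.5 CPM in scramble and at 79.6, 51.7 and 56.9 CPM in shBrpf1, a log2 fold change of 0.64 (SE 0.23). Fosl2, a Fos-related subunit of AP-1, was at 23.9, 32.9 and 22.6 CPM in scramble and at 46.1, 37.1 and 32.4 CPM in shBrpf1, a log2 fold change of 0.55 (SE 0.21). The groups did not overlap for Nr4a3 and Egr3, and for Fosl2 the lowest shBrpf1 library lay just under the highest scramble library. The calls depended on single libraries. No member passed without scramble replicate 1 (0.536% of all genes) or without shBrpf1 replicate 1 (0.358%). Without scramble replicate 2 Nr4a3 was lost and without scramble replicate 3 Fosl2 was lost, leaving 2 each time (8.77% and 0.996% of all genes). Without shBrpf1 replicate 2 there were 9 such members (2.03%) and without shBrpf1 replicate 3 there were 5 (3.91%).

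Same-numbered CA1 libraries did not depart together throughout (correlations of -0.355, 0.195 and 0.346), so these correlations do not show the CA1 numbers as pairs, nor do they settle it. With the replicate number as a block 3 of 36 members had an unadjusted p under 0.05, against 1.48% of all genes, and none an adjusted p under 0.05 (0.0% of all genes). The 3 were Fos at 0.44 (SE 0.16), Fosl2 at 0.56 (SE 0.20) and Egr1 at 0.46 (SE 0.18), and Egr3 and Nr4a3 no longer passed. At each of the 3 numbers 13 of 36 members were higher in shBrpf1, Fos, Fosl2, Egr1, Egr3, Nr4a1 and Nr4a3 among them, and 2, Maff and Arl4d, were lower, where 12.3% and 14% of all tested genes were.

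Of the 36 members, 29 were above 0 in CA1, with a median of 0.19, against 50.8% of all genes and a median of 0.01. This lean also depended on single libraries. Without scramble replicates 1, 2 and 3 there were 33, 19 and 24 above 0, with medians of 0.44, 0.00901 and 0.10, and without shBrpf1 replicates 1, 2 and 3 there were 17, 30 and 21, with medians of -0.01, 0.46 and 0.15. All 3 MAP kinase phosphatases and all 4 measured synaptic and secreted effectors were above 0 (medians 0.19 and 0.25), as were 7 of 8 nuclear factors (median 0.37), 5 of 7 zinc finger factors (median 0.20), 5 of 7 AP-1 genes (median 0.07) and 5 of 7 growth regulators (median 0.16). Bdnf, with the next lowest p, was at 41.5, 44.9 and 49.0 CPM in scramble and at 74.0, 45.0 and 60.1 CPM in shBrpf1, a log2 fold change of 0.42 (SE 0.20), with groups that overlapped. Arl4d was the only member lower without overlap, at 29.5, 23.1 and 23.8 CPM in scramble and 18.2, 20.05 and 22.6 CPM in shBrpf1 (log2 fold change -0.31, SE 0.16). Groups without overlap were found for 3 of 36 members, against 5.35% of all genes. The 7 CA1 pyramidal markers were also all above 0, with a median of 0.29 and sums of 345 to 716 CPM in scramble and 557 to 736 CPM in shBrpf1, and all 6 mature oligodendrocyte markers were below 0, with sums of 8459 to 11918 CPM and 5203 to 9355 CPM. None of either list passed an unadjusted p under 0.05, and their part in the members' levels was not tested.

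The commonest activity markers had wide errors in CA1. Egr1 was at 180.3, 76.7 and 140.2 CPM in scramble and at 267, 81.1 and 227 CPM in shBrpf1, a log2 fold change of 0.55 (SE 0.44). Npas4 was at 28.6, 7.37 and 18.8 CPM in scramble and at 38.2, 6.998 and 29.5 CPM in shBrpf1, a log2 fold change of 0.47 (SE 0.66). Both genes showed the low number 2 library in each arm. Nr4a1 was at 134, 38.0 and 58.9 CPM in scramble and at 137, 45.4 and 104 CPM in shBrpf1, a log2 fold change of 0.33 (SE 0.53). Junb was at 162, 52.6 and 77.7 CPM in scramble and at 128, 43.5 and 131 CPM in shBrpf1, a log2 fold change of 0.07 (SE 0.50). Dusp1 was at 20.2, 10.8 and 29.1 CPM in scramble and at 23.5, 11.4 and 31.6 CPM in shBrpf1, a log2 fold change of 0.16 (SE 0.42). For all 3 the arms overlapped over most of their range. The log2 fold change was 0.49 (SE 0.88) for Fos and 0.10 (SE 0.64) for Arc.

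Whether the hairpin acted differently in CA1 and in culture was put to an interaction test over the 12 libraries. No member passed an unadjusted p under 0.05 (0 of 36, against 0.336% of the 17254 tested genes), and none passed by DESeq2 or limma-voom, nor was any adjusted p under 0.05 (0.0% of all genes). The shBrpf1 effect was more positive in CA1 than in neurons for 33 of 36 members, with a median difference of 0.37, against 51.8% of all genes and a median of 0.02. Without the neuron scramble replicate 1 the count was 12 of 36 and the median -0.23, so the direction of this lean also turned on that library. Without the neuron scramble replicate 2 there were 2 members past an unadjusted p of 0.05, Fosl2 and Nptx2 (1.57% of all genes). With the replicate number as a block 5 of 36 passed it, against 2.25% of all genes, and none passed by adjusted p (0.0% of all genes). The effect was then more positive in CA1 for Fos by 1.21 (SE 0.39), Dusp1 by 0.97 (SE 0.35), Nr4a1 by 0.72 (SE 0.31) and Egr1 by 0.65 (SE 0.21) on the log2 scale, and for Klf2 the difference was -0.96 (SE 0.40).

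CA1 was then compared with the cultures, once in the scramble libraries and once in the shBrpf1 libraries, which share no sample. Age, culture and cell makeup all differ between CA1 and the cultures and cannot be told apart here. In the scramble libraries 7 of 36 members passed an adjusted p under 0.05 (edgeR), against 21.7% of the 16488 tested genes, or 17.6% with chromosome 13 left out. Of these, 4 were higher in CA1 (8.75% of all genes) and 3 lower (12.9%). In the shBrpf1 libraries 8 of 36 passed, all higher in CA1, against 22.1% of the 16521 tested genes (9.7% as higher and 12.4% as lower), and 7 passed against 18.3% with chromosome 13 left out, Nr4a2 being lost. Both shares are close to those of all genes. By direction alone, 18 of 36 members were above 0 in the scramble libraries (46.0% of all genes, medians -0.01 and -0.08) and 23 of 36 in the shBrpf1 libraries (46.7%, medians 0.88 and -0.05). Arc, Klf2, Arl4d and Ier5, 4 of 36 members, passed the adjusted p as higher in CA1 in both sets. Of the 16234 genes tested in both sets, 2784 passed in both, in either direction. The groups did not overlap for 11 of 36 members in the scramble libraries (41.2% of all genes) and for 15 of 36 in the shBrpf1 libraries (41.6%). The direction was the same in both sets for 31 of 36 members (86.1%), and for 86.7% of the genes tested in both.

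Arc rose, with a log2 fold change of 3.33 (SE 0.74, adjusted p = 0.0146) in the scramble libraries and 3.92 (SE 0.61, adjusted p = 0.00342) in the shBrpf1 libraries. Its 6 CA1 libraries, at 91.4 to 432 CPM, all lay above its 6 neuron libraries, at 7.84 to 43.5 CPM. Arl4d rose by 2.27 (SE 0.46, adjusted p = 0.00919) and 2.63 (SE 0.32, adjusted p = 0.000822) on the log2 scale, from 9.24, 2.74 and 3.54 CPM in scramble neurons to 29.5, 23.1 and 23.8 CPM in scramble CA1, and from 4.22, 2.09 and 3.49 CPM in shBrpf1 neurons to the shBrpf1 CA1 levels above. Ier5, an immediate early response protein, rose by 1.05 (SE 0.24, adjusted p = 0.0167) and 1.36 (SE 0.29, adjusted p = 0.0132). It was at 25.2, 29.4 and 18.1 CPM in scramble neurons and 53.4, 47.4 and 52.3 CPM in scramble CA1, and at 28.6, 32.1 and 18.2 CPM and 81.0, 46.9 and 74.3 CPM in the shBrpf1 libraries. All 3 genes were higher in every CA1 library than in any neuron library.

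Klf2, a Krueppel-like factor best known from endothelial cells and lymphocytes, rose by 3.08 (SE 0.54, adjusted p = 0.0048) in the scramble libraries and 2.25 (SE 0.62, adjusted p = 0.035) in the shBrpf1 libraries. It was at 2.40, 1.44 and 0.599 CPM in scramble neurons, 4.05, 1.95 and 1.03 CPM in shBrpf1 neurons, 13.1, 8.83 and 16.8 CPM in scramble CA1, and 6.24, 8.26 and 19.3 CPM in shBrpf1 CA1. The groups did not overlap in either set. All 8 endothelial markers were also higher in CA1 in both sets (6 and 7 of 8 by adjusted p), with a sum of 136 to 184 CPM in CA1 and 5.75 to 17.6 CPM in neurons, where Cldn5 was at 0 in both number 3 libraries. The sum of 7 microglial markers was 224 to 451 CPM in CA1 and 1.26 to 14.8 CPM in neurons. The part of these cells in the Klf2 level was not tested.

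Dusp5, a nuclear phosphatase of ERK, was at 10.9, 2.46 and 4.67 CPM in scramble neurons and 20.9, 13.6 and 13.6 CPM in scramble CA1, where its adjusted p was 0.0929. In the shBrpf1 libraries it rose from 8.48, 2.97 and 4.87 CPM to 22.2, 16.9 and 15.2 CPM (log2 fold change 1.73, SE 0.40, adjusted p = 0.0169). Its direction was the same in both sets. Nr4a1 (1.98, SE 0.53, adjusted p = 0.0326), Nptx2 (1.52, SE 0.31, adjusted p = 0.0112) and Nr4a2 (1.57, SE 0.47, adjusted p = 0.0486) rose in the shBrpf1 libraries as well. The CA1 levels of Nptx2 were 40.7, 29.3 and 33.1 CPM in scramble and 57.6, 31.6 and 37.6 CPM in shBrpf1, and in scramble its neuron replicate 1, at 69.2 CPM, lay above all of them. Gadd45b, a growth arrest protein, was at 9.94, 5.29 and 7.19 CPM in scramble neurons, 20.3, 9.11 and 11.7 CPM in scramble CA1, 8.24, 6.34 and 5.55 CPM in shBrpf1 neurons and 13.6, 8.33 and 16.2 CPM in shBrpf1 CA1, with adjusted p of 0.166 and 0.0831.

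Lower in CA1 than in culture were Fosl2, Nr4a3 and Tiparp, in the scramble libraries. Fosl2 fell by 2.07 on the log2 scale (SE 0.61, adjusted p = 0.0438), from 184, 24.6 and 121 CPM in scramble neurons to the 22.6 to 32.9 CPM given above for CA1, and its neuron replicate 2 overlapped with CA1. In the shBrpf1 neurons it was at 74.8, 33.7 and 122 CPM, and the log2 fold change was -0.99 (SE 0.41, adjusted p = 0.133). Nr4a3 fell by 1.63 (SE 0.47, adjusted p = 0.043) and had -1.19 (SE 0.49, adjusted p = 0.13) in the shBrpf1 libraries, opposite in sign to its relatives Nr4a1 and Nr4a2. Tiparp, a mono-ADP-ribosyltransferase, fell by 0.98 (SE 0.24, adjusted p = 0.0225), from 31.1, 34.4 and 26.5 CPM to 17.5, 17.5 and 12.4 CPM, and had -0.46 (SE 0.26, adjusted p = 0.261) in the shBrpf1 libraries, at 19.0, 26.4 and 28.9 CPM in neurons and 23.1, 17.6 and 13.4 CPM in CA1. None of these falls passed in the shBrpf1 libraries, and the difference between the sets is the interaction test above, in which none of the 3 passed an unadjusted p under 0.05 with or without the replicate block.

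The next members in that direction did not pass in either set. Trib1, a pseudokinase, was at 18.3, 20.8 and 36.1 CPM in scramble neurons and 16.4, 10.1 and 13.3 CPM in scramble CA1 (log2 fold change -0.94, SE 0.32, adjusted p = 0.0723). Btg2, an antiproliferative protein, was at 37.7, 34.8 and 70.2 CPM and 31.8, 16.6 and 28.1 CPM (log2 fold change -0.92, SE 0.35, adjusted p = 0.0965). Sik1, a salt-inducible kinase, was at 22.2, 15.3 and 16.5 CPM and 15.3, 10.2 and 11.4 CPM (log2 fold change -0.58, SE 0.28, adjusted p = 0.18). In the shBrpf1 libraries the log2 fold changes of the 3 were -0.40 (SE 0.29), -0.58 (SE 0.43) and -0.52 (SE 0.20). Fos (-1.54, SE 0.96), Egr1 (0.06, SE 0.60), Npas4 (-1.15, SE 1.09), Junb (1.17, SE 0.72), Nr4a1 (1.02, SE 0.72), Bdnf (-0.47, SE 0.55) and Dusp1 (-0.04, SE 0.60) did not pass in the scramble libraries, and apart from Nr4a1 they did not pass in the shBrpf1 libraries either. Fos and Npas4 were above 0 there (0.24, SE 0.76, and 0.26, SE 0.86).

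How many members passed depended on the libraries used. In the scramble set the count was 12, 6 and 4 without neuron replicates 1, 2 and 3 (16.6%, 19.1% and 11.6% of all genes), and 4, 4 and 3 without CA1 replicates 1, 2 and 3 (12%, 13.2% and 11%). In the shBrpf1 set it was 13, 7 and 6 without neuron replicates 1, 2 and 3 (19.7%, 16.9% and 16.6% of all genes), and 4, 9 and 3 without CA1 replicates 1, 2 and 3 (10.8%, 12.8% and 10.9%). When each of the 6 libraries of a set was left out in turn, Arl4d passed all 6 times in both sets. Arc passed all 6 times in the shBrpf1 set and was lost in the scramble set without neuron replicate 3 (adjusted p = 0.0692). Klf2 passed all 6 times in the scramble set, but in the shBrpf1 set it was lost without neuron replicate 2 or 3 or CA1 replicate 2 or 3 (adjusted p up to 0.153). Ier5 was lost without CA1 replicate 3 in the scramble set (adjusted p = 0.0638) and without CA1 replicate 1 or 3 in the shBrpf1 set (0.0591 and 0.0639). Of the genes called in 1 set, Nptx2 passed all 6 times and Dusp5 4 times, Nr4a1 passed 2 times and Nr4a2, Fosl2, Nr4a3 and Tiparp 1 time each. The largest adjusted p of those last 5 was between 0.125 and 0.178.

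**Figure D5:**
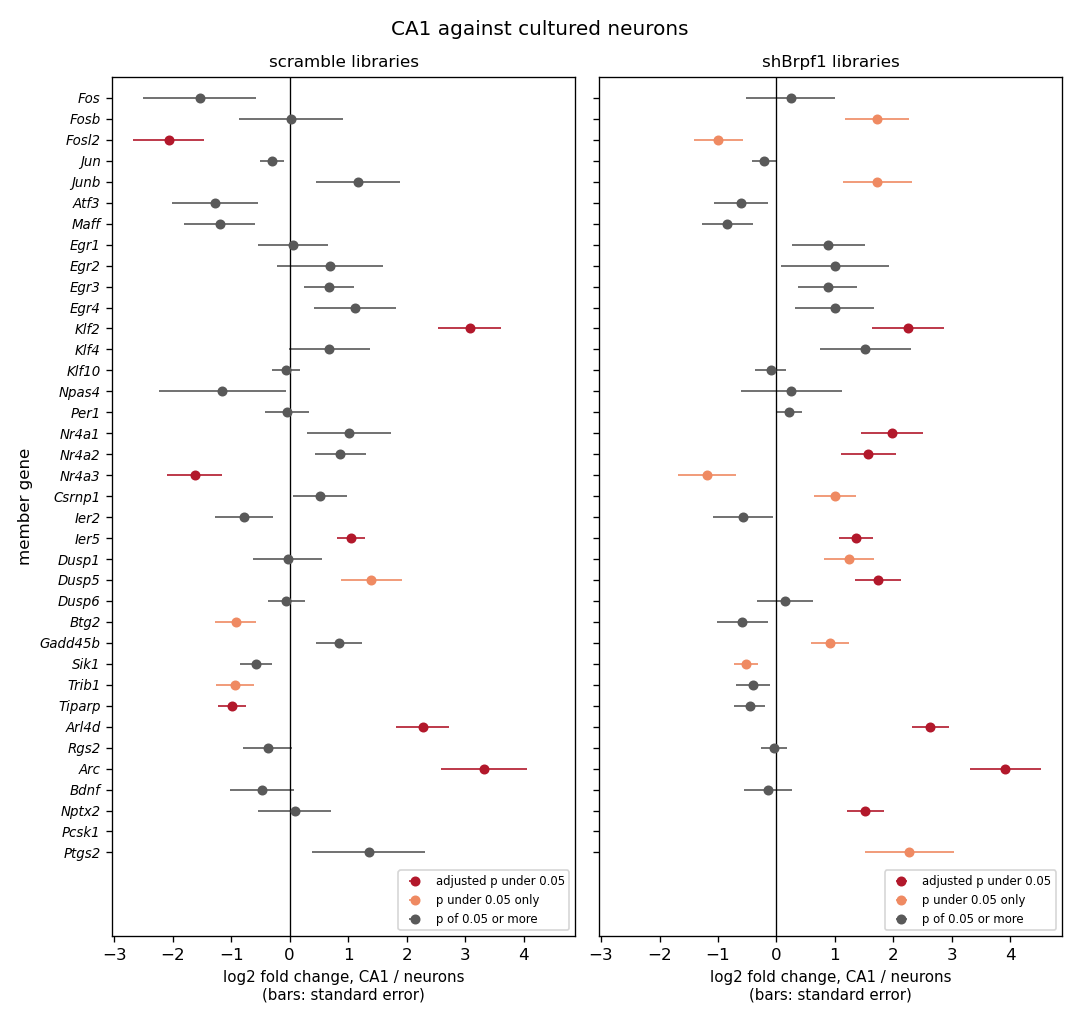
The log2 fold change of each member, CA1 over cultured neurons, with its standard error, in the scramble libraries (left) and the shBrpf1 libraries (right), from edgeR. Arc (3.33 and 3.92), Klf2, Arl4d and Ier5 passed an adjusted p of 0.05 in both sets, and Pcsk1 has no point because its CA1 level was not measured.

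Atf3, a stress-induced leucine zipper factor, and Maff, a small Maf factor, did not exceed 9.24 CPM in any library, and both were below 0 in CA1 against neurons in each set (Atf3 -1.28 and -0.61, Maff -1.20 and -0.84). Egr2 ranged from 0.802 to 11.6 CPM and Egr4 from 8.23 to 80.8 CPM, in step with Egr1 in that the number 1 neuron libraries were highest and the number 2 CA1 libraries lowest. Per1, a repressor of the circadian clock, was at 131 CPM in scramble neuron replicate 1 and at 42.7 to 89.5 CPM elsewhere. Dusp6, a cytoplasmic phosphatase of ERK, was at 33.4 to 107 CPM and Rgs2, a regulator of G protein signalling, at 19.7 to 64.2 CPM. Csrnp1, a nuclear protein, was at 3.71 to 15.2 CPM, Ier2 at 4.57 to 25.2 CPM and Klf10 at 19.0 to 36.6 CPM. Ptgs2 was at 23.0, 0.574 and 4.20 CPM in scramble neurons and 12.6, 1.11 and 2.98 CPM in shBrpf1 neurons, and at 18.1 to 35.9 CPM in CA1. Pcsk1 was at 55.4, 4.27 and 13.6 CPM in scramble neurons and 40.9, 12.3 and 24.5 CPM in shBrpf1 neurons. Jun was at 137 to 175 CPM in neurons and 113 to 154 CPM in CA1.

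The genes that act before and after the members gave no call in the shBrpf1 comparisons. Of 40 upstream genes (kinases, CREB and SRF factors and their partners, calcium channels), 0 passed an unadjusted p under 0.05 in neurons and 0 of 39 in CA1, with medians of 0.16 and 0.14. In neurons the lowest p belonged to the calcium channel gene Cacna1d (0.30, SE 0.19) and in CA1 to Creb1, which encodes CREB (0.39, SE 0.24). Of the late response genes, which follow the members in time, 0 of 19 passed in neurons and 0 of 16 in CA1 (medians -0.26 and 0.09), with Sorcs3 the lowest p in both (-0.64, SE 0.61, and 0.43, SE 0.24). Other early response genes gave 0 of 18 and 0 of 16 (medians -0.13 and 0.05), and heat shock genes 0 of 10 and 0 of 10 (medians 0.10 and -0.06). With the replicate block in neurons 5 of the 40 upstream genes, 2 of the 19 late response genes, 2 of the 18 other early response genes and 1 of the 10 heat shock genes passed that p. Of all tested genes 4.9% passed it in that fit, and none of the listed genes passed by adjusted p.

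The late response genes, of which Sst is also a GABAergic marker, shared the pattern of the number 1 libraries. The summed level of the 16 measured in both experiments was 2356 CPM in scramble replicate 1 and 1576 CPM in shBrpf1 replicate 1, and 386 to 1263 CPM in the other neuron libraries. The sum of 39 upstream genes was also higher in both number 1 libraries, at 7907 and 10951 CPM against 5321 to 7372 CPM in the rest. Heat shock genes did not share the pattern, at 4586 and 5701 CPM in the number 1 libraries against 3707 to 6337 CPM in the rest.

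Between CA1 and culture the upstream genes differed in both directions. In the scramble libraries 8 of 39 were higher and 3 lower in CA1 at an adjusted p under 0.05, and in the shBrpf1 libraries 7 and 3. For this and the next lists, 8.75% of all tested genes were higher and 12.9% lower in the scramble libraries. In the shBrpf1 libraries these shares were 9.7% and 12.4%. Camkk1, a kinase of the calmodulin-dependent kinases, rose by 2.65 (SE 0.25) and 2.17 (SE 0.37) on the log2 scale, and Camk2a rose by 2.13 (SE 0.30) in the scramble libraries. Of the late response genes 3 and 4 of 16 were higher and 0 lower, among them the neuropeptide genes Crh (4.03, SE 1.10, and 3.95, SE 0.90) and Penk (2.82, SE 0.85, and 3.39, SE 0.67). Crh was near the floor, at 0.0 to 0.208 CPM in neurons and 0.591 to 2.07 CPM in CA1. Of the other early response genes Fbxo33 rose (1.53, SE 0.26, and 1.67, SE 0.25) and Myc, a growth regulator, fell by 3.01 (SE 0.52) and fell by 2.85 (SE 0.67). The heat shock gene Hspb1 rose by 2.60 (SE 0.60) and 2.18 (SE 0.45), and 2 and 1 of the 10 heat shock genes passed as higher.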

How the data were processed

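RNA-seq count tables of 12 libraries (3 in each of 4 groups) were used. According to the methods of the study and the labels, the authors removed adapters and low-quality bases, aligned reads with STAR to the mouse genome (the labels name mm9), and counted reads per gene with StringTie. The deposited values are raw counts, whole numbers for each NCBI gene ID. Of 27179 IDs, 25275 matched a name in the RefSeq gene table. The 1904 without a name held 2.46% of the counts and stayed in the fits. Whether counting used strand is not given in the sources used here, so overlapping genes may share reads. Library totals are given above.

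The members and all gene lists were chosen with earlier results of these data known. Genes that reached 10 counts in 3 or more libraries of a fit were tested with edgeR 4.0.16 (TMM, robust quasi-likelihood fit and test, R 4.3.3), two-sided, on the whole table, with Benjamini-Hochberg adjustment over all tested genes. Standard errors are the log2 fold change divided by the square root of F. Each shBrpf1 comparison used the 6 libraries of its experiment, each tissue comparison the 6 libraries of its arm, and the interaction all 12. Because CPM values were compared on a log scale, 0.5 was added. DESeq2 1.42.0, limma-voom (limma 3.58.1), other filters and scalings, a joint fit, leaving out libraries and a replicate block were the alternatives. Leaving out chromosome 13 was added after seeing the data. The main fits used group means alone, without a block, in neurons too. As an alternative, the block was read as pairing in neurons, where same-numbered libraries departed together. Their correlations were 0.584 to 0.887. Departures from a group mean cancel out within each arm. The values for different numbers, -0.732 to -0.22, thus follow in part from those and are not separate evidence. In CA1 (-0.355 to 0.346) pairing could not be settled. Between CA1 and neurons the block joined unrelated libraries by number. Scripts were tested on simulated counts.

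Values in every library were given for members past an unadjusted p of 0.05 in a shBrpf1 comparison, the 4 with the lowest p in each, the 6 with the lowest p in each direction between CA1 and neurons in the scramble libraries, and Fos, Arc, Egr1, Npas4, Nr4a1, Junb, Bdnf and Dusp1. Klf4, Nr4a2, Ptgs2, Pcsk1 and other members were named with values after these were seen.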

Additional observations from a re-analysis of the deposited data

How the results depend on the processing

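In neurons the number of members with an unadjusted p under 0.05 was 0 in the chosen design, 5 with the replicate block (4.9% of all genes), and 0 to 2 when replicates were left out. In CA1 it was 3, then 0 in a joint fit of the 12 libraries (0.591% of all genes) and 0 to 9 when replicates were left out. With the replicate block it was 3 there as well, namely Fos, Fosl2 and Egr1. For the difference of effects it was 0, 5 with the replicate block (2.25% of all genes; Fos, Egr1, Dusp1 and Nr4a1 as more positive in CA1, Klf2 as more negative) and 0 to 2 when replicates were left out. For CA1 against neurons the number with an adjusted p under 0.05 was 7 in the scramble libraries (21.7% of all genes), and 0 to 12 when replicates were left out (1.51% to 19.1%). In the shBrpf1 libraries it was 8 (22.1%), 14 with DESeq2 (27.8%), 14 with the replicate block (22.6%) and 2 to 13 when replicates were left out (4.33% to 19.7%). Between CA1 and neurons that block joined libraries of the same number from separate experiments, so it does not stand for pairing. The cause of these shifts was not tested.

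Some log2 fold changes reversed. With the replicate block, which does not stand for pairing between CA1 and neurons, Npas4 in the scramble CA1 comparison with neurons was 0.0822. There Dusp1 was 0.00801 with at least 50 counts, 0.18 with limma-voom and 0.20 with the replicate block. In the shBrpf1 libraries limma-voom gave -0.0941 for Fos and 0.00391 for Bdnf. The cause was not tested. When replicates were left out, the shBrpf1 effect in neurons ranged from -1.68 to 0.18 for Nptx2, -2.11 to 0.52 for Fosb, -2.05 to 0.33 for Fos, -1.03 to 0.37 for Arc, -1.20 to 0.81 for Egr1, -2.54 to 1.94 for Npas4, -1.33 to 0.66 for Nr4a1, -1.30 to 0.85 for Junb and -0.56 to 1.20 for Bdnf. In CA1 it ranged from -0.35 to 0.89 for Arc, -0.0121 to 0.95 for Npas4, -0.0645 to 0.99 for Nr4a1, -0.29 to 0.64 for Junb and -0.17 to 0.51 for Dusp1. Between CA1 and neurons the range in scramble libraries was -2.20 to 0.0765 for Fos, -0.32 to 1.14 for Egr1, -1.68 to 1.73 for Npas4, -0.85 to 0.71 for Bdnf and -0.67 to 1.03 for Dusp1, and in shBrpf1 libraries -0.37 to 0.99 for Fos, -0.29 to 1.84 for Npas4 and -0.40 to 0.50 for Bdnf. Of the other values of single members, 889 kept their direction and side of the threshold, 83 lost a call and 30 gained one.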
